A study of Mus musculus with 4 samples.

Results

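Phosphatases and other feedback brakes of MAP kinase signalling were measured in wild-type (C57Bl6) mouse visual cortex on 4 single-colour Affymetrix arrays. The genes were Dusp1, Dusp2, Dusp6, Dusp8, Dusp14, Spry1, Spry2, Spry4, Errfi1 and Ptpn5. A probe set, which is a group of short probes read together as 1 value, was taken when the platform annotation gave 1 of these symbols as its single gene. This chose 11 of the 12488 probe sets on the array, for 7 of the 10 genes. Dusp6, Dusp8, Errfi1 and Ptpn5 had a pair of probe sets each, and Dusp1, Dusp2 and Spry4 had 1 each. Dusp14, Spry1 and Spry2 had no probe set that named them alone and were not analysed here.

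The deprived group was visual cortex contralateral to an enucleated eye (2 arrays), and the non-deprived group was visual cortex ipsilateral to it (2 arrays). All tissue came from a study of 5 mice that were dark reared from birth, were enucleated on 1 side at postnatal day 42 (P42), then lived in a normal light-dark cycle for 4 days and were killed at P46. Darkness from birth, surgery and first light were thus shared by both groups, and no array of a mouse without enucleation was part of the comparison. Tissue was pooled within a side, and no source used here gave the number of mice behind each pool. All p-values therefore measure only the spread between these arrays.

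Growth factors and synaptic activity start a kinase cascade from Ras through Raf and MEK to the MAP kinase ERK, which phosphorylates cytoplasmic and nuclear targets and switches on immediate-early genes. The cascade also induces its own brakes. Dual-specificity phosphatases (Dusp) remove phosphates from MAP kinases, Sprouty proteins (Spry) dampen the path from receptor tyrosine kinases to Ras and Raf, Errfi1 inhibits receptors of the EGF receptor family, and Ptpn5, the striatum-enriched phosphatase STEP, dephosphorylates ERK and p38 in neurons. In visual cortex, ERK signalling is known to take part in the plasticity that follows a change of input from an eye.

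The promoters of 4 of the genes are shown because these genes differ most in how they behaved: Dusp1 and Dusp6 had the most clearly lower signals in deprived cortex, Dusp8 is a phosphatase of the same family with slightly higher mean signals there, and the Errfi1 probe sets disagreed. Each window runs from 250 bases before to 50 bases after a RefSeq start on GRCm38.p6 and is written 5′ to 3′ on the gene's strand. Capitals mark the cAMP response element TGACGTCA and its core TGACG, read on both strands. A full element contains overlapping cores of both strands.
Dusp1 (chr17:26508423-26508722, minus strand): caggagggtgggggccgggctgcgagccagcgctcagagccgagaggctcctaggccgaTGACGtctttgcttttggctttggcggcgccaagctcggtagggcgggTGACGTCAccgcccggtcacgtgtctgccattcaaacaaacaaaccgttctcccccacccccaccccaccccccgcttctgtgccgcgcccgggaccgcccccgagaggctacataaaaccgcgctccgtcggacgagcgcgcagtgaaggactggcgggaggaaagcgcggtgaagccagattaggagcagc
Dusp6 (chr10:99262981-99263280, plus strand): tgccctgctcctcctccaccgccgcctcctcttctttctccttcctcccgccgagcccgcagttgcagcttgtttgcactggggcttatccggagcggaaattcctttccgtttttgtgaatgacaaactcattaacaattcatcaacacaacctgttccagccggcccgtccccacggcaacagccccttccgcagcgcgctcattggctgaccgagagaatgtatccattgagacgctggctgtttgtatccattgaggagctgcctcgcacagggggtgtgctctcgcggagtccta
Dusp8 (chr7:142095235-142095534, minus strand): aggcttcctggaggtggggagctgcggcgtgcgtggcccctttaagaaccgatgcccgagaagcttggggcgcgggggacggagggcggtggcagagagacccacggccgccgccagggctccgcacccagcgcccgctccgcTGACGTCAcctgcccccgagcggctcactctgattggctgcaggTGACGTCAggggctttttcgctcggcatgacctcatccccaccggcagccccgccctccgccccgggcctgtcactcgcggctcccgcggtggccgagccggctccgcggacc
Errfi1 (chr4:150854820-150855119, plus strand): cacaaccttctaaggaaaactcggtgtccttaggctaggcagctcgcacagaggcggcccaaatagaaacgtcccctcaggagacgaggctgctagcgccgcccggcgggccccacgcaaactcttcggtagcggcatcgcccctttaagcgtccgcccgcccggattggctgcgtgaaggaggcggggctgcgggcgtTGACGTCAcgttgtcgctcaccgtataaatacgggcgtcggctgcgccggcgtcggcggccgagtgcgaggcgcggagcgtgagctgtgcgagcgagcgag
The Dusp1 window held 1 full element, beginning 143 bases before the start, and a separate core at 191 bases. The Dusp8 window held 2 full elements, beginning 107 and 63 bases before the start. The Errfi1 window held 1, beginning 51 bases before the start, and the other RefSeq start of Errfi1 had none in its window. The Dusp6 window held neither the full element nor a core. Of the 11 windows searched, which cover 9 genes, 3 held the full element and 4 at least 1 core. The Dusp2 window held a core only. Among 32851 promoter windows of the same length, 1.79% held the full element and 20.8% at least 1 core. Those windows were not filtered by genome build. The AP-1 motif TGACTCA, bound by Fos and Jun proteins, was searched on both strands as well. It was in 5.2% of all windows and in none of the 11 windows of the 9 genes searched. No Spry4 window was searched. These matches describe letters in a window, and the full element occurred both in a gene with lower signal (Dusp1) and in a gene whose groups overlapped (Dusp8).

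The comparison asks how transcripts of the hemisphere opposite the removed eye differ from those of the hemisphere on its side, after first exposure to light. The MAP kinase phosphatases Dusp1 and Dusp6 had lower signals on both deprived arrays than on either non-deprived array, and neither passed the adjusted threshold in the unblocked fit. Values are MAS5 signals in arbitrary units, scaled to an equal trimmed mean on each array, and log2 fold changes are deprived minus non-deprived on the log2(signal + 60.6) scale, which understates changes of dim probe sets. limma tested 7458 probe sets with a mean signal of at least 142.9, and 9 of the 11 probe sets, covering all 7 genes, were among them.

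Dusp1 encodes a nuclear phosphatase that is itself an immediate-early gene product and acts on p38, JNK and ERK. Its signal was 2079.8 and 2510.4 on deprived arrays 1 and 2, against 4077 and 4627 on non-deprived arrays 1 and 2. Both deprived arrays lay well below both non-deprived arrays, and replicates of a group lay close together. The deprived mean was 2295 ± 305 and the non-deprived mean 4352 ± 389 (SD, n = 2 each), so the deprived mean was 0.527 of the non-deprived one. In limma the log2 fold change was -0.91 ± 0.17 (SE; 95% interval -1.29 to -0.53), with an adjusted p of 0.117 over all tested probe sets. With the replicate number as a block, Dusp1 fell by 0.91 ± 0.14 on the log2 scale in limma (adjusted p = 0.0123). The 4 differences between a deprived and a non-deprived array ran from -1.13 to -0.69, so every pair had the same sign. The adjusted p in limma was 0.0281 without deprived array 1 and 0.00433 without deprived array 2, and it was 0.582 without non-deprived array 2.

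Dusp6 encodes a cytoplasmic phosphatase that is selective for ERK and is a well-known readout of ERK activity. Its bright probe set 93285_at had 1238 and 1648 on deprived arrays 1 and 2, against 2334.5 and 2764 on non-deprived arrays 1 and 2. The groups did not overlap, and the second array of each group was the higher one. The deprived mean was 1443 ± 289 and the non-deprived mean 2549 ± 303 (SD, n = 2 each), a ratio of 0.566. The log2 fold change in limma was -0.80 ± 0.19 (SE; 95% interval -1.22 to -0.39), with an adjusted p of 0.268. With the replicate block Dusp6 fell by 0.80 ± 0.15 (adjusted p = 0.0320 in limma), and the adjusted p was 0.0132 without deprived array 2. It was 0.181 without deprived array 1, 0.122 without non-deprived array 1 and 1 without non-deprived array 2, so 1 of the 4 fits with an array left out passed. Its other probe set, 161536_r_at, was too dim to test, with 9.1 and 48.8 on deprived arrays against 100.9 and 63.0 on non-deprived arrays. These values also did not overlap, but all of them are small beside the signals of tested probe sets.

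**Figure D1:**
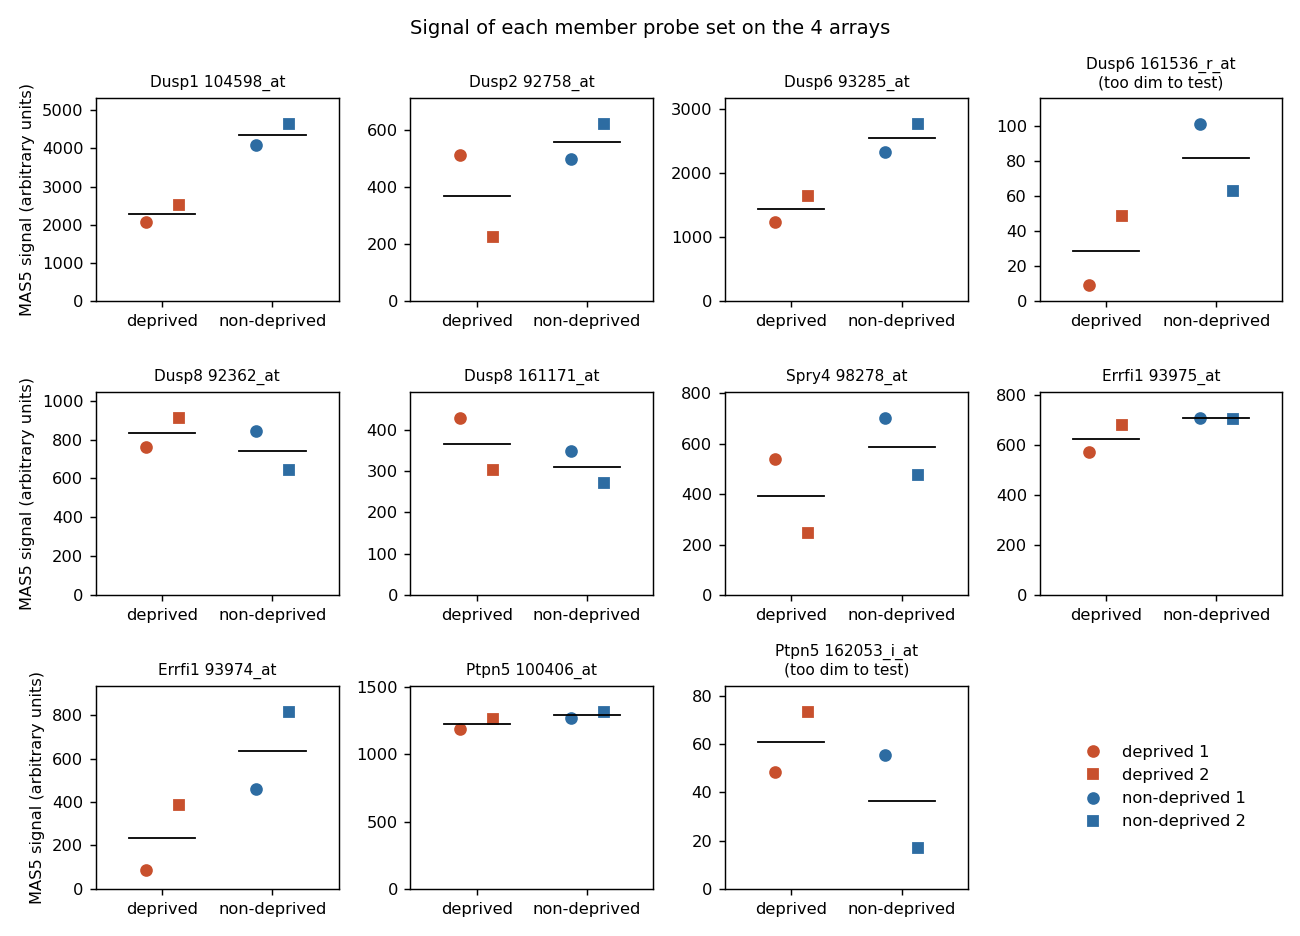
MAS5 signal (vertical axis from 0, arbitrary units) of each of the 11 probe sets on the 2 deprived and 2 non-deprived arrays; horizontal lines are group means, and circles and squares mark replicates 1 and 2. Dusp1 and Dusp6 93285_at show the clearest gap between groups, whereas Dusp2 and Spry4 have 1 deprived array within the non-deprived range.

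Dusp2 and Dusp8, both further dual-specificity phosphatases, did not share that separation. Dusp2 encodes a nuclear phosphatase of immune and other cells that inactivates ERK. Its signal was 511 and 223 on deprived arrays 1 and 2, against 497 and 618 on the non-deprived ones. Deprived array 1 lay inside the non-deprived range, and only deprived array 2 was below it. The log2 fold change of -0.61 ± 0.34 (SE, limma adjusted p = 0.984) rested mostly on deprived array 2, and it was -0.11 without deprived array 2 and -1.12 without deprived array 1.

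Dusp8 encodes a phosphatase of brain and heart that acts mainly on JNK and p38. Its brighter probe set 92362_at had 761 and 909 on deprived arrays, against 842 and 642 on non-deprived arrays. Its dimmer probe set 161171_at had 428 and 303 on deprived arrays, against 349 and 270.3 on non-deprived arrays. The groups overlapped at both probe sets. The log2 fold changes were 0.17 ± 0.22 and 0.19 ± 0.32 (SE). In limma both had an adjusted p of 0.999. Their 95% intervals, -0.32 to 0.65 and -0.51 to 0.90, do not reach the log2 fold change of Dusp1 or of Dusp6, and a difference between the genes was not tested. The sign was not settled, since it turned negative at 92362_at without non-deprived array 2 (-0.015) and at 161171_at without deprived array 1 (-0.019).

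Spry4 was the only Sprouty gene with a probe set of its own. Its signal was 538 and 248 on deprived arrays 1 and 2, against 702 and 476 on non-deprived arrays 1 and 2. The groups overlapped, and within each group array 2 was the lower one. The log2 fold change was -0.57 ± 0.34 (SE, limma adjusted p = 0.984). Within the same-numbered pairs the differences were -0.35 and -0.80, while deprived array 1 was higher than non-deprived array 2 by 0.16. The value was -0.10 without deprived array 2, -1.05 without deprived array 1 and -0.32 without non-deprived array 1.

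Errfi1, also called Mig6, is an induced inhibitor of the EGF receptor family, and its probe sets gave different answers. The probe set 93974_at had 86.6 and 384 on deprived arrays 1 and 2, against 459 and 814 on non-deprived arrays 1 and 2. All deprived values lay below all non-deprived values, but the arrays of a group differed widely, and deprived array 2 was near non-deprived array 1. The deprived mean was 235 ± 210.3 and the non-deprived mean 637 ± 251 (SD, n = 2 each). The log2 fold change was -1.40 ± 0.47 (SE), with an adjusted p of 0.601 in limma. The log2 fold change was -2.20 without deprived array 2 and -0.60 without deprived array 1.

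The other Errfi1 probe set, 93975_at, had 573 and 679 on deprived arrays against 708 and 707 on non-deprived arrays. Its groups did not overlap either, but the gap between them was small. The log2 fold change was -0.17 ± 0.22 (SE, limma adjusted p = 0.999). The differences between the groups at the 2 probe sets were thus 1.23 apart on the log2 scale. Probe positions were not analysed here, so which parts of the Errfi1 transcript the probe sets read is unknown.

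Ptpn5, the tyrosine phosphatase STEP of striatal and cortical neurons, had nearly equal signals. The probe set 100406_at had 1186 and 1259 on deprived arrays 1 and 2, against 1269 and 1312 on non-deprived arrays 1 and 2. The deprived values lay just below the non-deprived ones. The deprived mean was 1223 ± 51.4 and the non-deprived mean 1291 ± 30.8 (SD, n = 2 each), and the log2 fold change was -0.08 ± 0.18 (SE; 95% interval -0.46 to 0.31, limma adjusted p = 0.999). The interval includes neither the value of Dusp1 nor that of Dusp6, although the difference between the genes was not tested. The other Ptpn5 probe set, 162053_i_at, was too dim to test, with 48.2 and 73.2 on deprived against 55.5 and 17.1 on non-deprived arrays, and its groups overlapped.

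**Figure D2:**
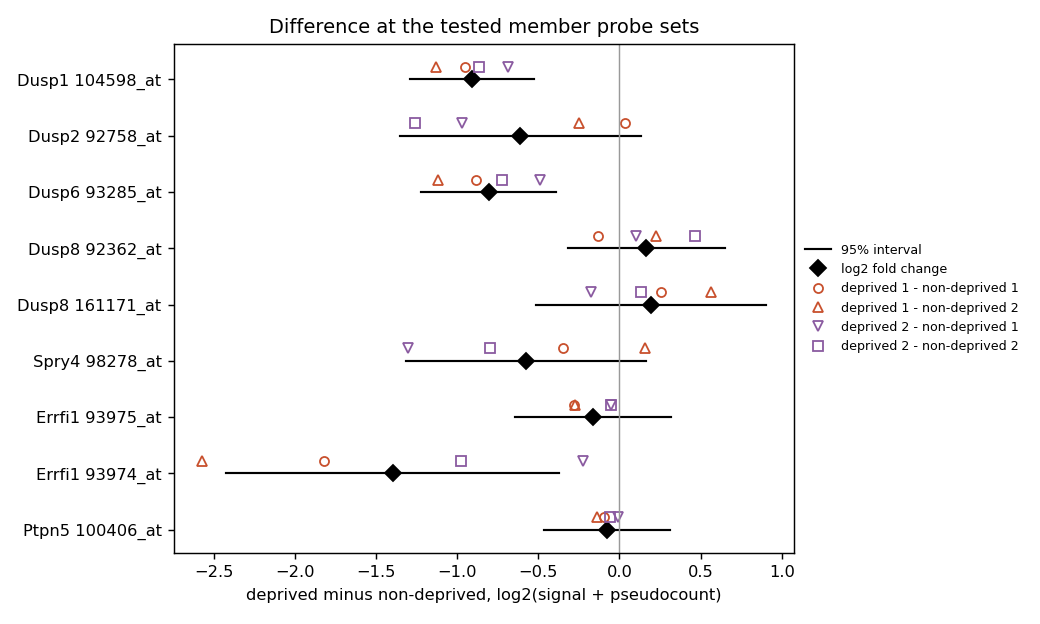
Log2 fold change (diamonds, deprived minus non-deprived, with limma's 95% interval as a line) at the 9 tested probe sets, and the 4 differences between single arrays (open symbols). All 4 differences lie below 0 for Dusp1, Dusp6, Ptpn5 and both Errfi1 probe sets, while those of Dusp2, Dusp8 and Spry4 straddle 0.

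Over the 9 tested probe sets, 0 passed the adjusted threshold of 0.05 in limma, where 0.107% of all tested probe sets were lower and 0% higher. Without adjustment, p was under 0.05 at 3, all lower (Dusp1, Dusp6 and Errfi1 93974_at), beside 3.66% lower and 1.77% higher of all tested probe sets. With the replicate block 2 fell, Dusp1 and Dusp6, beside 0.523% lower and 0.0134% higher of all. Only Dusp1 was at least 1.5-fold lower in all 4 pairs of arrays, beside 1.58% lower and 0.322% higher of all. Of the 9, 7 had a log2 fold change below 0, as did 49.8% of all. The groups did not overlap at 5 probe sets, each lower in deprived cortex, beside 17.1% lower and 15.1% higher of all. That count takes in Ptpn5 and Errfi1 93975_at, whose differences were small.

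With the brightest probe set standing for each gene, 6 of the 7 genes lay below 0, and their median log2 fold change was -0.57, beside 0.006 over 5649 tested genes. The median is that of Spry4, whose arrays overlapped. Without deprived array 2 it was -0.12, and without non-deprived array 1 it was -0.32. The members did not vary alike between arrays: Dusp1 and Dusp6 were higher on deprived array 2 than on deprived array 1, as was Errfi1, whereas Dusp2 and Spry4 were lower there.

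**Figure D3:**
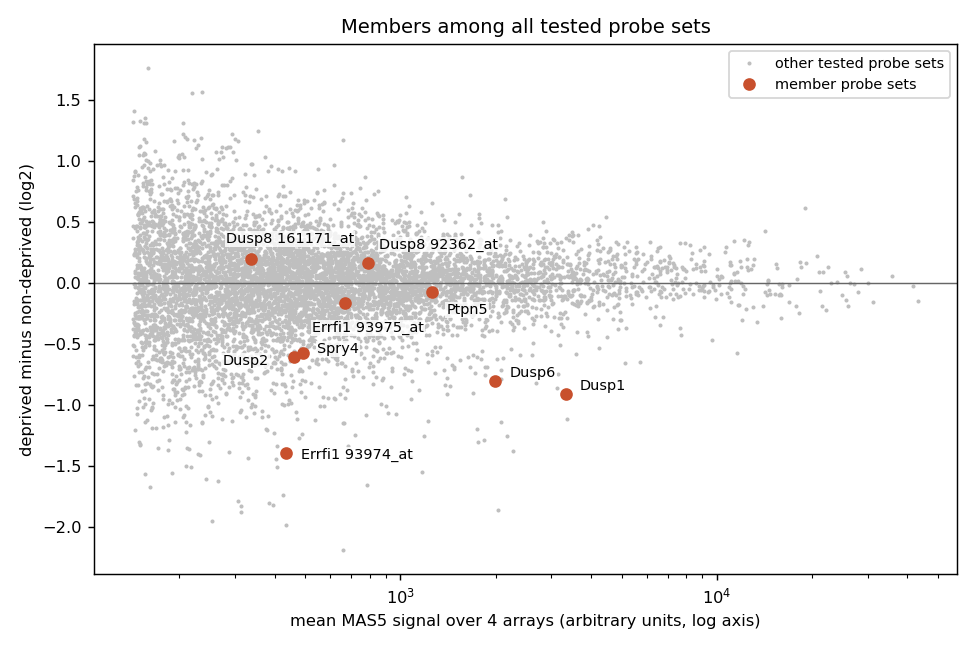
Log2 fold change (vertical axis, deprived minus non-deprived) against mean MAS5 signal (horizontal log axis, arbitrary units) for the 7458 tested probe sets, with the 9 member probe sets in colour. Dusp1 and Dusp6 lie at the lower edge among bright probe sets, and the other members except Errfi1 93974_at lie within the cloud.

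The wider pathway was read through 3 lists, again with the brightest tested probe set for each gene. Of other brakes on the pathway, 13 of 29 listed genes were tested, and 0 passed in either direction in limma, with 0 at an unadjusted p under 0.05. Their median was -0.10, with 10 below 0 and 3 above. The smallest p-values among them belonged to Rasa3 and Rasa1, which encode Ras GTPase-activating proteins, and to the phosphatase genes Dusp9 and Dusp19. Their log2 fold changes were 0.36 ± 0.26, -0.43 ± 0.43, 0.50 ± 0.56 and -0.35 ± 0.43 (SE). In limma all 4 had an adjusted p of 0.999. Spred2, a relative of the Sprouty genes, gave -0.06 ± 0.20.

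Of kinases and adaptors of the cascade, 14 of 25 listed genes were tested, 0 passed in either direction, and the median was -0.08. At an unadjusted p under 0.05 there were 3, all lower. Mapk9, the gene of the kinase JNK2, had 218 and 337 on deprived arrays against 561 and 771 on non-deprived arrays, a log2 fold change of -1.11 ± 0.30 (SE, limma adjusted p = 0.389). Grb2, the adaptor that brings Sos to receptors, and Map2k4, a kinase that activates JNK and p38, gave -0.69 ± 0.18 and -0.69 ± 0.23 (limma adjusted p = 0.378 and 0.586). Fgfr1, a receptor upstream of Ras, gave 0.55 ± 0.28.

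Of 12 genes known as targets of ERK signalling, 8 were tested, all 8 lay below 0, and the median was -0.90. Fos and Junb fell (adjusted p = 0.0201 and 0.0299 in limma), and 0 passed upwards. With the replicate block 4 fell, which were Fos, Junb, Nr4a1 and Egr2. Over all 5649 tested genes, 2781 lay below 0, 5 fell and, with the block, 25 fell. Elk1, a transcription factor that ERK phosphorylates, gave -0.01 ± 0.23 (SE). Fos, Junb, Nr4a1 and Egr2 had log2 fold changes from -1.38 (Fos) to -1.14 (Nr4a1), larger in size than those of Dusp1 and Dusp6. Those of Egr1, Fosb, Ier2 and Elk1 were smaller in size, at -0.65, -0.65, -0.56 and -0.01. Whether they differ from Dusp1 and Dusp6 was not tested.

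**Figure D4:**
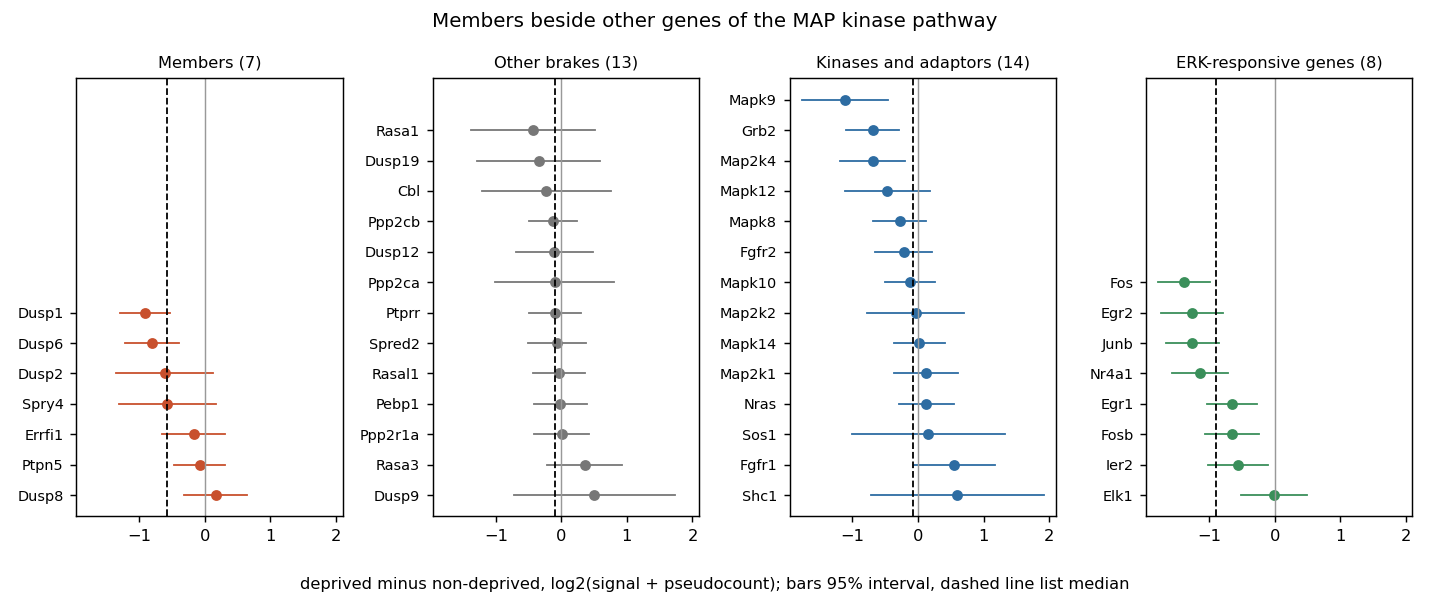
Log2 fold change (deprived minus non-deprived, points) with limma's 95% interval (lines) for the 7 member genes and for 13 other brakes, 14 kinases and adaptors and 8 ERK-responsive genes, each by its brightest tested probe set; dashed lines are the list medians. The medians were -0.57 for the members, -0.10 and -0.08 for the middle lists and -0.90 for the ERK-responsive genes.

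The tested probe sets most like Dusp1 over the 4 arrays were those of Srpk2, Lcat and S1pr3, at Euclidean distances of 0.083, 0.126 and 0.141 between log2 values centred on each probe set's mean. Those most like Dusp6 were S1pr3, Btg2 and Srpk2, at 0.093, 0.094 and 0.099. They were picked as nearest out of 6707 candidates on only 4 arrays. Their lower deprived signals follow from that choice, and their p-values come from the same values that picked them, so they are no separate evidence. Btg2, an immediate-early gene with antiproliferative activity, had 2009 and 2683 on deprived arrays against 3489.5 and 4435 on non-deprived arrays, and a log2 fold change of -0.75 ± 0.19 (SE, limma adjusted p = 0.370), or an adjusted p of 0.0344 with the replicate block. Srpk2 and S1pr3 did not pass in either fit, and neither did Lcat.

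The tissue carried its cortical markers. Summed signals of 6 of 9 listed genes of cortical excitatory neurons were 14018 and 17302 on deprived arrays against 15799 and 17215 on non-deprived arrays, which overlapped. Nrgn was the brightest of them. Camk2a, a postsynaptic kinase gene in that list, was lower on both deprived arrays at both of its probe sets, with log2 fold changes of -0.62 ± 0.21 and -1.74 ± 0.43 (SE, limma adjusted p = 0.586 and 0.286); with the replicate block the second passed (adjusted p = 0.0320). Some other marker sums did move with the groups. Those of 5 of 6 myelin genes were 12402 and 11173 in deprived against 10394 and 9156 in non-deprived cortex. The groups there overlapped for Mbp and Mag. Those of Mog did not, with 361 and 343 in deprived against 303 and 210 in non-deprived cortex. The brightest Mobp probe set had 4854 and 4574 in deprived against 3707 and 3079 in non-deprived cortex. At 2 dimmer Mobp probe sets both deprived arrays were lower instead. The sums of 6 inhibitory neuron genes were 12809 and 15130 in deprived against 15403 and 16465 in non-deprived cortex. At their brightest probe sets Vip, Slc32a1 and Pvalb were lower on both deprived arrays, Gad2 was higher, and Gad1 and Sst overlapped. Vip had 80.4 and 88.5 in deprived against 313 and 230 in non-deprived cortex. The dimmer Pvalb probe set was higher in deprived cortex instead, with 348 and 276 against 189 and 174. Sums of 4 of 9 striatal genes, a tissue rich in Ptpn5, were 1689 and 1523 in deprived against 1451 and 1377 in non-deprived cortex. Among them Drd2 and Tac1 overlapped between groups. The brightest Penk probe set did not, with 1021 and 1193 in deprived against 956 and 984 in non-deprived cortex. At the other tested Penk probe set the groups overlapped. Rgs9 was too dim to test, as were the myelin gene Cnp, the endothelial genes Tek and Tie1 and the microglial gene Aif1. The sums of 6 endothelial genes were 1486 and 1174 in deprived against 1138 and 1151 in non-deprived cortex. Those of 6 microglial genes were 4550 and 4851 in deprived against 5111 and 4898.5 in non-deprived cortex. At the brightest probe sets of all 4 tested endothelial and all 5 tested microglial genes, the groups overlapped. Hippocampal sums, of 3 of 4 genes, were 1789 and 2096 on deprived arrays against 2535 and 3052 on non-deprived arrays. The lower hippocampal sums rested on Nptx1 (713 and 1292 in deprived against 1646 and 1895 in non-deprived cortex). Wfs1 overlapped between groups, and Prox1, too dim to test, had 112 and 80.7 in deprived against 37.6 and 11.5 in non-deprived cortex. The astrocyte, choroid plexus and thalamus sums overlapped. Among the astrocyte genes Slc1a2 did not, with 362 and 178 in deprived against 570 and 576 in non-deprived cortex. Its log2 fold change was -0.997 ± 0.327 (SE, limma adjusted p = 0.584). At the brightest probe sets of Aldoc, Aqp4, Gfap and Gja1, the other tested astrocyte genes, the groups overlapped. No listed marker with a probe set was at a signal of 0. The 5′ to 3′ signal ratio of actin, which falls when RNA is degraded, was 0.544 and 0.463 in deprived against 0.638 and 0.632 in non-deprived cortex, and that of Gapdh was 0.745 and 0.689 in deprived against 0.875 and 1.07 in non-deprived cortex. That of the transferrin receptor overlapped between groups, with 0.269 and 0.474 in deprived against 0.270 and 0.0758 in non-deprived cortex. The part of these differences in the lower Dusp1 and Dusp6 signals was not tested, and in bulk tissue fewer cells of a type and less RNA per cell cannot be told apart.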

How the data were processed

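The authors deposited MAS5 intensities, 1 signal per probe set on a linear scale, with MAS5 named in the submitters' processing notes; its version and scaling target are not given in the sources used here. Arrays were scaled to an equal 2% trimmed mean, 60.6 (the 20th percentile of mean signals) was added and log2 taken. The 66 control probe sets and those below the 40th percentile (142.9) were left out. limma 3.58.1 in R 4.3.3 (lmFit, eBayes with trend) tested deprived against non-deprived cortex, two-sided, and p-values were adjusted by Benjamini-Hochberg over 7458 probe sets. The fit had 2 residual degrees of freedom (11.6 with the prior), and the number of arrays limits precision. An exact permutation test could not go below p = 0.333. Shared replicate numbers were read as pairs, because the design text sets cross-animal comparisons apart; deviations of same-numbered arrays correlated at 0.271. The blocked fit, with 1 residual degree of freedom, rests almost wholly on its prior. The fit was also run on simulated data with independent noise on each array. That simulation had no effects shared by pairs or arrays, so no result here rests on it. Marker and pathway lists took each gene's brightest probe set, with symbols updated through RefSeq. The genes named from each pathway list include those of smallest p. Other pathway genes and the marker genes were named whatever their p. Members and lists were chosen with earlier results of these data known. Alternatives changed pseudocount, filter, scaling, variance model, block and arrays. Member promoters are RefSeq's, of GRCm38.p6, and windows of 9 of the 10 genes were searched. Spry4 was left out of that search.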

Additional observations from a re-analysis of the deposited data

How the results depend on the processing

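Over the 9 tested probe sets and 12 alternatives, 100 values kept their sign and their side of the threshold, 6 newly passed and 2 reversed. The reversals were Dusp8 161171_at (-0.019) without deprived array 1 and Dusp8 92362_at (-0.015) without non-deprived array 2; with 1 array left out, these probe sets ran from -0.019 to 0.408 and from -0.015 to 0.347. The count of 8 probe sets past the threshold on the array became 40 with the replicate block, 1 after quantile normalization, 3 with a common median, 27 at an adjusted p under 0.2 and 0 without the variance trend (limma, 390 at an unadjusted p under 0.05). With 1 array left out it ran from 5 to 90. A group left with 1 array was assumed to vary as the other did. The count of 0 members (3 at an unadjusted p under 0.05 in limma) became 2 with the replicate block and 1, Dusp1, at an adjusted p under 0.2, and ran from 0 to 3 with 1 array left out. The adjusted p of Dusp1 ran from 0.00433 to 1 over its alternatives and that of Dusp6 from 0.0132 to 1, the highest with a common median for Dusp1 and, for Dusp6, there and without non-deprived array 2. The median over the members ran from -0.607 to -0.116 with 1 array left out. The count of 5 probe sets without overlap rose in those settings, since fewer arrays had to separate. The share over all tested probe sets was not computed there, so the rise cannot be read as a result about the members. The block changed no other member's call. Apart from the looser threshold and the smaller number of arrays, the cause was not tested.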
